A study of Mus musculus with 4 samples.

Results

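The genes described are the mouse L1 family of cell adhesion molecules (L1cam, Chl1, Nrcam and Nfasc) and the contactins (Cntn1 to Cntn6). Members were the matrix rows carrying those symbols. All 10 were found, each on 1 row, among 31053 genes, with 4 in the L1 family and 6 contactins. The data are single-nucleus RNA sequencing of the superior colliculus, a layered midbrain structure that receives retinal axons, from C57BL/6J mice carrying no stated transgene or treatment. The 4 groups were the stages embryonic day 19 (E19) and postnatal days 4, 8 and 21 (P4, P8 and P21) and each was 1 library of pooled tissue. The labels state neither how many animals were pooled nor their sex. A stage and its library therefore cannot be told apart, no test between stages was possible, and every interval below covers counting error only.

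Both families are immunoglobulin-superfamily proteins of axons and glia. L1 family members cross the membrane and bind ankyrin through a short cytoplasmic motif, which ties them to the spectrin skeleton. L1cam and Chl1 are best known for axon growth and guidance, and Nrcam and Nfasc for the axon initial segment and the node of Ranvier. Contactins have no cytoplasmic part. They are held to the membrane by a lipid anchor and act with partners in the same membrane or on the opposing cell. At the myelinated axon, Cntn1 on the axon and a glial form of Nfasc meet at the paranode, while Cntn2 is found on both axon and glia beside it. Retinal ganglion cell axons reach the colliculus, but their nuclei lie in the eye, so their transcripts were not measured here.

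The coding stretch of the ankyrin-binding motif is shown for the 4 L1 family members because it is the feature that sets them apart from the contactins. It was read from GENCODE M21 transcripts (GRCm38), 5′ to 3′ on the coding strand. Capitals mark the 15 bases (5 codons) of the motif, and 18 bases are given on either side.
L1cam: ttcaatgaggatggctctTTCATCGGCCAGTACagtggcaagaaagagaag
Nrcam: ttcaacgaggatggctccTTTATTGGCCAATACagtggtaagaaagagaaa
Nfasc: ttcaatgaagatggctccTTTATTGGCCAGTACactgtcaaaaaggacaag
Chl1: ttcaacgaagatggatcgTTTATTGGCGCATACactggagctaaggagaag
Counting positions from 1 at the 5′ end of the capitals and taking L1cam as the reference, Nfasc differed by C3T and C6T and Nrcam by C3T, C6T and G12A. Chl1 differed at 5 positions, C3T, C6T, C10G, A11C and G12A. In these transcripts the motif stood 28 codons before the end of the coding sequence in L1cam, Nrcam and Nfasc and 23 codons before it in Chl1.

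The genes differ widely in length, which matters because a pre-mRNA reference counts intronic reads. On GRCm38, L1cam (ENSMUSG00000031391) spans 42.3 kb of the minus strand at chrX:73853778-73896105, and Cntn5 (ENSMUSG00000039488) spans 1243.9 kb at chr9:9660891-10904775. Nrcam lies at chr12:44328885-44601964 and Cntn1 at chr15:92051165-92341967. Cntn2 (chr1:132509427-132543256, 33.8 kb) and Nfasc (chr1:132564690-132741797, 177.1 kb) are neighbours on the minus strand of chromosome 1, 0.0214 Mb apart with 0 protein-coding genes between them. Cntn3 (chr6:102162655-102573101), Chl1 (chr6:103510586-103750211), Cntn6 (chr6:104492790-104863406) and Cntn4 (chr6:105677660-106699310) follow one another within 4.54 Mb, again with 0 protein-coding genes in the 3 gaps. L1cam overlaps Arhgap4 on its own strand and Avpr2 on the other, and Nfasc, Cntn3 and Cntn5 each overlap an antisense gene that is also in the matrix. No source used here says whether counting used strand. The UMIs of those 4 genes may thus hold some from the overlapping gene.

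The E19, P4, P8 and P21 libraries held 2585, 2386, 2504 and 2249 nuclei, assigned by the authors to 9 classes and 35 subtypes. Median depth was 6828 to 11745 unique molecular identifiers (UMIs) per nucleus, lowest at E19 and highest at P21. The 10 genes took 0.516% to 0.646% of each library's UMIs. Nuclei of different libraries shared 9 barcode sequences (18 nuclei of 9724). Marker lists were highest in the class they name in 20 of 25 class-by-library sums, which did not include the oligodendrocyte lineage. The exceptions were astrocytes at E19 and P4, whose list (1927.3 and 1956.8 CPM) was higher in vascular leptomeningeal cells (3196.3 and 2767.7 CPM), excitatory neurons at P8 (183.2 against 184.4 CPM in microglia), and the class labelled epithelial, whose list summed to 4.80 CPM at P8 and 7.28 CPM at P21, so that its label is not borne out and its values are not described. Summed myelin markers (Mog, Mbp, Mobp and Mag) were higher at P21 than at E19 or P4 in every class that could be compared, including neurons (44.6 to 107.1 CPM in excitatory and 43.9 to 112.4 CPM in inhibitory neurons from E19 to P21).

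Levels are UMIs per 1000000 UMIs of a class or subtype sum (CPM). Differences are log2 ratios with 5 CPM added to each side, and a member was called when the ratio was at least 0.5 in size and the higher level at least 20 CPM. Between E19 and P21, L1cam and Chl1 were lower in both neuron classes. Cntn2 was higher in both, Cntn5 was lower in excitatory neurons, and Cntn4 and Cntn6 were higher in inhibitory neurons. Of the 10 members, 1 was called higher and 3 lower in excitatory neurons. Of all genes tested in that class, 15.8% were called higher and 24.5% lower. In inhibitory neurons 3 members were called higher and 2 lower, against 17.7% and 24.6% of all genes tested. Of the genes called, 39.2% in excitatory and 41.9% in inhibitory neurons were higher, and 51.0% and 52.1% with median-of-ratios scaling, which also called Cntn3 and Cntn6 higher in excitatory neurons. The members' median log2 ratio was 0.060 in excitatory and -0.023 in inhibitory neurons, beside -0.061 and -0.037 over all genes tested. As a family the members thus did not go one way.

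L1cam, which promotes axon outgrowth and bundling, stood at 142.4, 141.9, 113.6 and 47.9 CPM at E19, P4, P8 and P21 in excitatory neurons. In inhibitory neurons it stood at 133.2, 123.8, 112.3 and 37.2 CPM. The first 3 stages were close together and P21 lay far below them in both classes. The log2 ratio of P21 over E19 was -1.48 (95% counting interval -1.60 to -1.36) in excitatory and -1.71 (-1.87 to -1.55) in inhibitory neurons. Most of the difference lay between P8 and P21, where the ratios were -1.17 and -1.47. Among nuclei that should have little of the gene, microglia at P21 held 36.0 CPM from 4 UMIs (9.81 to 92.2), while astrocytes held 8.61 CPM from 14 UMIs (4.71 to 14.4) and vascular leptomeningeal cells 4.36 CPM from 4 UMIs (1.19 to 11.2). The inhibitory level at P21, from 421 UMIs (33.8 to 41.0 CPM), was thus above that of astrocytes and vascular leptomeningeal cells and within the interval of microglia.

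Chl1, the close homologue of L1cam, stood at 601.6, 516.5, 408.6 and 211.1 CPM in excitatory neurons and at 537.5, 444.5, 337.7 and 141.8 CPM in inhibitory neurons. Each later stage was lower than the one before it in both classes. The P21 over E19 log2 ratio was -1.49 (-1.55 to -1.43) in excitatory and -1.89 (-1.97 to -1.80) in inhibitory neurons. Microglia held Chl1 at 206.7, 105.4 and 63.0 CPM at P4, P8 and P21, below both neuron classes in each of those libraries. Within subtypes, both genes were lower at P21 and past the fold in 23 of the 23 neuron subtypes that held at least 20 nuclei at both stages. L1cam ranged from -1.94 in IN3 to -0.81 in EN9, and Chl1 from -3.06 in IN8 to -1.11 in EN1.

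Shares of nuclei gave the same order for these genes once depth was matched by thinning every nucleus to 2000 UMIs. In excitatory neurons the share with an L1cam UMI was 25.9% (Clopper-Pearson 95% interval 23.6% to 28.4%) at E19 and 10.3% (8.09% to 12.8%) at P21. The share with a Chl1 UMI was 67.9% at E19 and 32.0% at P21. Without thinning the L1cam shares were 65.9% and 59.7%, at median depths of 8051.5 and 19601 UMIs. In inhibitory neurons the thinned L1cam share was 22.3% at E19 and 7.43% (5.65% to 9.56%) at P21. Without thinning, 2 of 33 microglia (6.06%, 0.743% to 20.2%) at P21 had an L1cam UMI. Their median depth was 2994 UMIs, against 14009.5 in inhibitory neurons before thinning. The microglial share and the thinned inhibitory share are thus not at a matched depth.

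The other L1 family members stayed within the fold between E19 and P21 in the sums of both neuron classes. Nrcam, which takes part in axon guidance and in the assembly of nodes, stood at 467.4, 531.1, 530.7 and 420.8 CPM in excitatory neurons and at 559.8, 561.2, 609.9 and 427.8 CPM in inhibitory neurons. The P21 over E19 ratios were -0.15 and -0.38. Within subtypes, Nrcam was past the fold downward in 8 of 23 and upward in 0, while Nfasc was past it upward in 1 and downward in 0. From P8 to P21 alone, Nrcam in inhibitory neurons was just past it at -0.51 (-0.56 to -0.45), one of 3 members called lower in a step where 12.4% of genes tested were lower. Nfasc, which anchors the initial segment, kept within 278.9 to 310.1 CPM in excitatory and 261.3 to 274.3 CPM in inhibitory neurons over all 4 libraries. A single nucleus held 8.39% of the Nfasc UMIs of excitatory neurons at P21. Whether the neuronal or the glial form was transcribed cannot be read from 3′ counts.

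Among contactins, Cntn1 stood at 646.9, 786.8, 760.3 and 729.3 CPM in excitatory neurons and at 541.8, 694.0, 637.7 and 577.1 CPM in inhibitory neurons, all within the fold of E19. Cntn2, also known as TAG-1, stood at 37.3, 42.6, 44.8 and 57.9 CPM in excitatory neurons and at 31.2, 42.7, 33.03 and 52.1 CPM in inhibitory neurons. P21 was the highest library in both classes, with log2 ratios over E19 of 0.57 (0.42 to 0.73) and 0.66 (0.45 to 0.87). The call in excitatory neurons did not hold with subtypes weighted alike (0.13) or with nuclei thinned (0.42). Myelin markers were also highest at P21 in both neuron classes. Astrocytes of the P21 library held 185.7 CPM of myelin markers and 4.31 CPM of Cntn2. The part of RNA from other nuclei in the neuronal Cntn2 values was not tested.

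Cntn2 did not go one way in all neuron subtypes. It was past the fold upward from E19 to P21 in 15 of 23 neuron subtypes and downward in 1, EN10. In EN10, the subtype with the highest mean level, Cntn2 stood at 177.0, 111.6, 104.4 and 51.9 CPM at E19, P4, P8 and P21. In IN12 its log2 ratio was 2.40, with an interval of 0.31 to 3.93 since it rests on 1 UMI at E19 and 16 at P21. The EN10 sums rest on 56, 56, 50 and 28 UMIs.

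Cntn3 was 327.7, 362.3, 517.0 and 432.8 CPM in excitatory neurons, with P8 highest, and 308.3, 350.5, 294.9 and 300.3 CPM in inhibitory neurons. The P4 to P8 difference in excitatory neurons was a log2 ratio of 0.51 (0.46 to 0.56), called where 2.87% of genes tested were called higher. The makeup of the class differed between those libraries. EN6, the subtype with the most Cntn3, numbered 41 of 1206 excitatory nuclei at P4 and 101 of 867 at P8, and its own level was 2572.4 and 2431.6 CPM. The P4 and P8 levels were 447.2 and 455.8 CPM in EN1, 784.7 and 749.7 CPM in EN5 and 288.7 and 168.5 CPM in EN2, while EN10 was at 111.6 and 208.8 CPM. Cntn6 was 262.4, 385.0, 289.6 and 364.2 CPM in excitatory neurons, called higher from E19 to P4 at 0.54, where 3.29% of genes tested were. In inhibitory neurons Cntn6 was higher at each later stage, at 246.8, 349.9, 375.2 and 410.5 CPM, with a P21 over E19 ratio of 0.72 (0.64 to 0.81). By subtype from E19 to P21, Cntn6 was past the fold upward in 18 of 23 and downward in 0. Cntn3 was past it upward in 13 and downward in 3.

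Cntn4 in excitatory neurons was 1320.1, 1249.5, 931.4 and 1291.6 CPM, with P8 lowest. In inhibitory neurons it was 817.6, 1111.1, 1086.2 and 1292.5 CPM, a P21 over E19 ratio of 0.66 (0.61 to 0.70). In excitatory neurons that ratio was -0.03. By subtype, Cntn4 was past the fold upward in 13 of 23 and downward in 1, from -1.11 in EN2 to 2.30 in EN6. Cntn5, the longest of the genes, was at 2589.8, 2814.5, 2285.6 and 1678.5 CPM in excitatory and 2106.2, 2604.1, 2631.3 and 2066.7 CPM in inhibitory neurons. Excitatory neurons at P21 were lowest (-0.62, -0.65 to -0.60), while inhibitory neurons at P21 were near their E19 level (-0.03). Its subtypes split, with 8 of 23 past the fold downward and 5 upward, from -1.45 in EN6 to 1.498 in IN9.

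Few calls were made between neighbouring stages before P8. In inhibitory neurons 0 members were called from E19 to P4, where 10.5% of genes tested were called in either direction, and 0 from P4 to P8, where 6.15% were. From P8 to P21, 2 members (L1cam and Chl1) were called lower in excitatory neurons against 12.7% of genes tested. In inhibitory neurons L1cam, Chl1 and Nrcam were called lower in that step, and Cntn2 was called higher (0.59) where 12.5% of genes tested were.

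**Figure D1:**
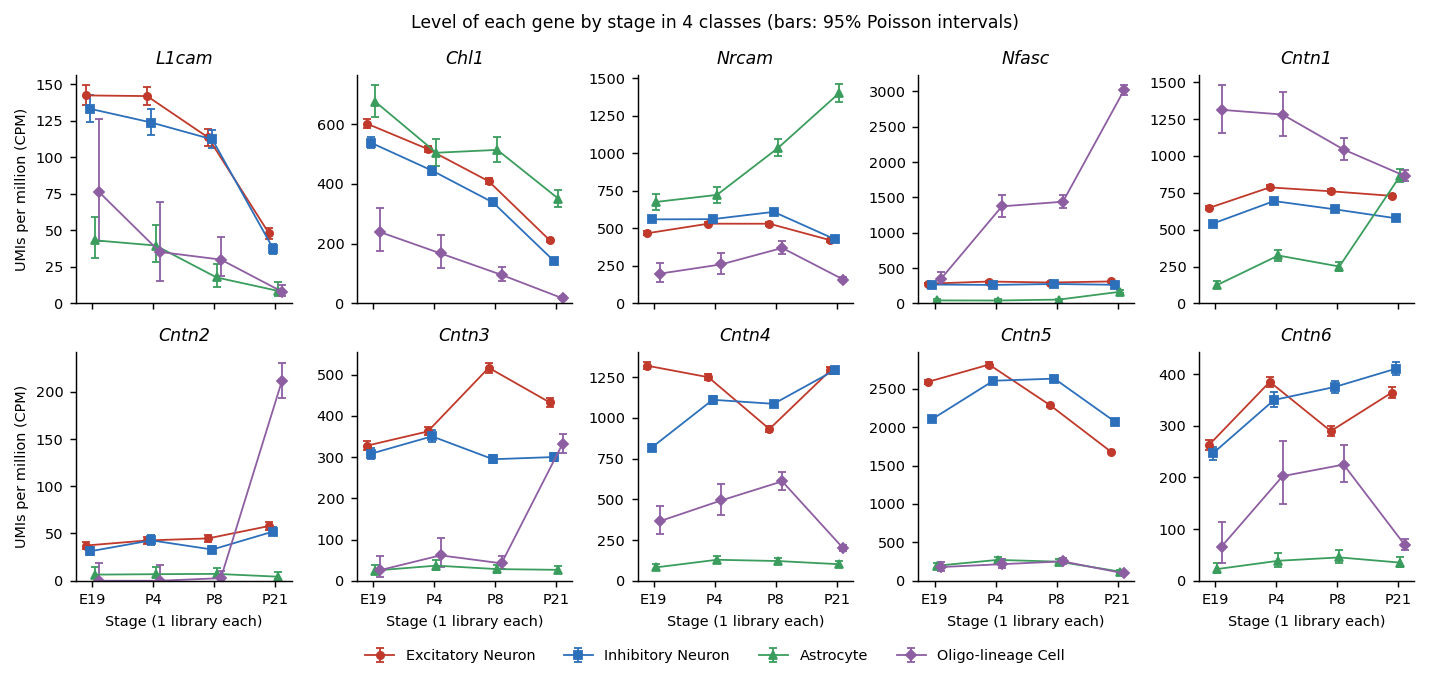
Level of each of the 10 genes (y axis, CPM, from 0) against stage (x axis, 1 library each) in excitatory neurons, inhibitory neurons, astrocytes and oligodendrocyte-lineage nuclei, with bars for 95% Poisson intervals. L1cam and Chl1 are lowest at P21 in all 4 classes, while Nfasc, Cntn2 and Cntn3 in the oligodendrocyte lineage and Nrcam and Cntn1 in astrocytes are highest at P21.

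Since the genes differ in length, their levels were also set side by side per length, as CPM per 100 kb of gene span. Whether the counts scale with gene span was not tested, so the order depends on the scale chosen. By CPM alone, Cntn5 was at rank 1 and L1cam at rank 9 at E19 in both neuron classes. Per length, L1cam was the highest of the 10 at E19, at 336.4 in excitatory and 314.7 in inhibitory neurons. Chl1 followed at 251.1 and 224.3. At P21 the order had turned, with Cntn1 highest at 250.8 and 198.45, L1cam at rank 7 and 8 with 113.1 and 88.0, and Chl1 last in both classes at 88.1 and 59.2. Cntn5 stood at 208.2 and 169.3 per 100 kb at E19, at rank 4 and 5.

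Inhibitory and excitatory neurons were compared within each library. Past the fold in single libraries were Cntn4 at E19 (-0.69), Cntn3 at P8 (-0.80) and P21 (-0.52) and Chl1 at P21 (-0.56), all toward excitatory neurons. The share of all genes past the fold in a single library was not taken, so these have no background beside them. Past the fold on the same side in all 4 libraries were 0 of 10 members, where over all genes tested 3.01% were, 1.67% toward excitatory and 1.33% toward inhibitory neurons, so that this count is near the background. Without a minimum size, 5 members were higher in excitatory neurons in all 4 libraries (L1cam, Chl1, Nfasc, Cntn1 and Cntn3) and 1, Nrcam, was higher in inhibitory neurons, which makes 6 of 10 on a constant side against 49% of all genes tested. The Chl1 log2 ratio of inhibitory over excitatory neurons was -0.16, -0.21, -0.27 and -0.56 at E19, P4, P8 and P21. The Nrcam ratio was 0.26, 0.08, 0.20 and 0.02, and at P21 its interval crossed 0 (-0.03 to 0.08).

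Cntn4, Cntn5 and Cntn6 were not on one side in all libraries. All 3 were higher in excitatory neurons at E19 and P4 and higher in inhibitory neurons at P8. The ratios were -0.69, -0.17, 0.22 and 0.00 for Cntn4, -0.30, -0.11, 0.20 and 0.30 for Cntn5, and -0.09, -0.14, 0.37 and 0.17 for Cntn6. At E19 the Cntn6 interval reached 0 (-0.18 to 0.00), and at P21 Cntn4 was level between the classes (-0.03 to 0.03). EN7, a subtype of 33, 191, 1 and 1 nuclei across the stages, held high levels of all 3 at E19 and P4. At E19, however, more of the Cntn4 UMIs of excitatory neurons were in EN2, with 5916 of 15223 in 287 nuclei at 2786.8 CPM, against 688 in EN7. EN2 numbered 36 nuclei at P21, at 1289.9 CPM. Cntn3 was at -0.09 and -0.05 at E19 and P4, before the larger differences of the later libraries. With subtypes weighted alike, Cntn3 was past the fold in all 4.

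**Figure D2:**
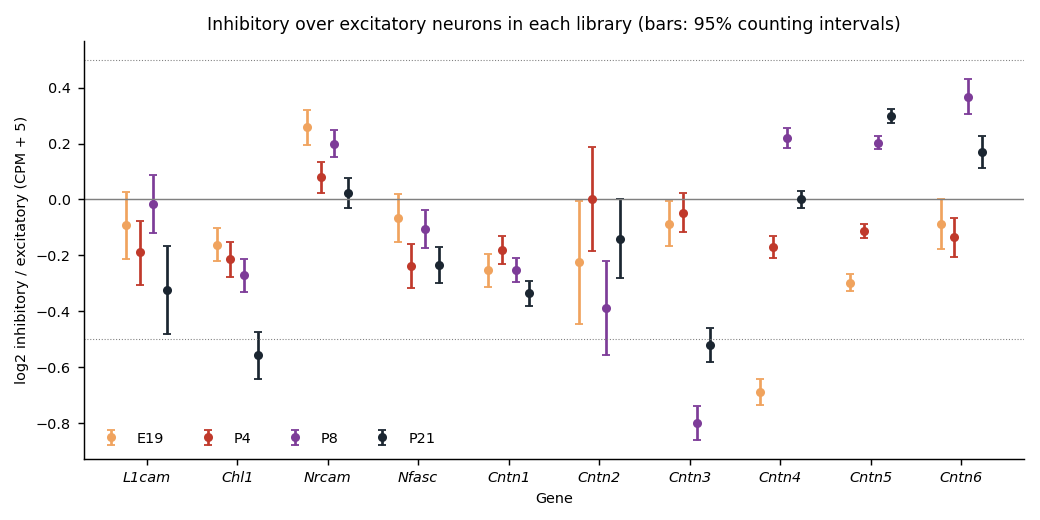
Log2 ratio of inhibitory over excitatory neurons (y axis, 5 CPM added to each) for each gene (x axis) in each of the 4 libraries, with 95% counting intervals and dotted lines at the fold of 0.5. Cntn4, Cntn5 and Cntn6 lie below 0 at E19 and P4 and above it at P8, and Cntn3 lies past -0.5 at P8 and P21.

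The neuron subtypes, 13 excitatory (EN) and 12 inhibitory (IN), varied far more in some members than in others. Each level is the mean over the libraries that held at least 20 nuclei of the subtype, so its SD includes the differences between stages. Highest over lowest subtype was 92.5-fold for Cntn3, 9.68-fold for Cntn5, 7.41-fold for Cntn4 and 6.18-fold for Cntn2, but 1.63-fold for Nfasc. The coefficient of variation over 25 subtypes was 131.3% for Cntn3 and 11.5% for Nfasc. Few neighbours in the order were apart: of 240 gaps between neighbouring subtypes over the 10 genes, 12 exceeded both subtypes' SDs, none of them in L1cam, Chl1 or Nfasc (0 each) and 3 in Cntn3.

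Cntn3, a contactin with neurite-promoting activity in culture, was highest in EN6, at 2636.1, 2572.4, 2431.6 and 1259.5 CPM from E19 to P21 (mean 2224.9 ± 649.3, SD, n = 4 libraries). IN2 (818.6 ± 140.4, n = 4) and EN5 (799.7 ± 44.8, n = 4) came next, and their ranges did not reach that of EN6. IN9 was lowest in all 4 libraries at 32.5, 16.2, 20.3 and 27.2 CPM, from 5, 2, 13 and 13 UMIs, each below the 66.9 CPM mean of microglia. IN8 (69.4) and IN12 (75.7) came next, and the gap from IN9 to IN8 exceeded both SDs.

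EN6 also had the highest mean of Cntn5, whose protein is known from auditory and visual pathways, at 10767.4, 6211.2, 6390.1 and 3940.3 CPM (6827.3 ± 2853.7, n = 4). It was highest in 3 of 4 libraries. IN11 (4680.1 ± 1301.1) and EN7 (4532.4 ± 797.5, n = 2) followed within its SD. IN9 was again lowest, at 246.8, 1059.4, 809.5 and 706.2 CPM, with EN9 (1125.9) and EN13 (1211.5) above it. The E19 library held only 30 nuclei of EN6.

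Cntn4, which guides retinal axons to accessory visual targets, and Cntn6 were both highest in EN3. Cntn4 there was 2186.2, 2626.6, 2468.3 and 2754.7 CPM (2509.0 ± 245.0, n = 4), and its lowest subtypes were EN8 (338.7), IN7 (467.6) and IN10 (475.3). Cntn6 in EN3 was 418.8, 572.0, 674.9 and 737.4 CPM (600.8 ± 139.2), and its lowest were EN12 (130.6), IN10 (152.5) and EN5 (160.3). EN7 was next for both genes, at 2038.0 ± 244.4 and 552.3 ± 99.4 CPM (n = 2), followed by IN4 at 1850.5 and 516.0. EN3 was highest in 3 of 4 libraries for Cntn4 and in 2 of 4 for Cntn6. EN7 was measured at E19 and P4 alone, where its Cntn6 level (482.0 and 622.5 CPM) was above that of EN3, so the order of these subtypes for Cntn6 depends on which libraries enter the mean.

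Nrcam was highest in IN6 in all 4 libraries, at 1376.2, 1340.4, 1201.7 and 713.7 CPM (1158.0 ± 305.6, n = 4), beyond the SDs of IN4 (685.9 ± 74.6) and EN12 (678.1 ± 36.5). It was lowest in IN10 (321.6), EN13 (349.7) and IN12 (371.5). Cntn2 was highest in EN10 (111.2 ± 51.3), in 3 of 4 libraries, ahead of IN8 (59.0) and EN3 (54.9) by mean. Its lowest means were in IN10 (17.99 ± 7.26), IN3 (20.9) and IN12 (29.4). Cntn1 was highest by mean, and in 3 of 4 libraries, in EN8 at a steady 827.2, 854.2, 858.5 and 881.7 CPM, followed by EN3 (786.1) and EN1 (774.2). Its lowest subtype was IN3, at 443.6, 378.6, 306.3 and 271.9 CPM, below IN12 (460.1) and IN4 (460.7). IN3 was the only subtype of 23 in which Cntn1 was lower at P21 than at E19.

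Nfasc was highest in EN5 in all 4 libraries (362.1, 437.9, 397.9 and 331.8 CPM), next to EN7 (345.7) and EN11 (310.8), and lowest in IN7 (234.2), IN3 (239.7) and IN4 (247.7). Chl1 had its highest mean in EN11 (645.4, n = 2 libraries with enough nuclei), although it was highest in 0 of those 2, then EN12 (589.6) and EN4 (519.2), and its lowest in IN8 (154.0), IN3 (222.8) and IN9 (223.7). In IN8 it stood at 225.5, 245.7, 122.3 and 22.6 CPM. L1cam was highest in EN7 (185.8, n = 2), EN12 (135.2) and EN3 (123.1) and lowest in EN13 (78.3), IN4 (79.4) and IN10 (81.7). EN13 was lowest in 0 of 4 libraries. EN7 and EN11 enter these orders through E19 and P4 alone, the stages at which L1cam and Chl1 were high everywhere. The thalamus and habenula markers Tcf7l2, Lef1, Gbx2 and Rnf220 summed to 8949.2 and 5841.4 CPM in EN7 at E19 and P4, the highest of all subtypes, and their part in these results was not tested.

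**Figure D3:**
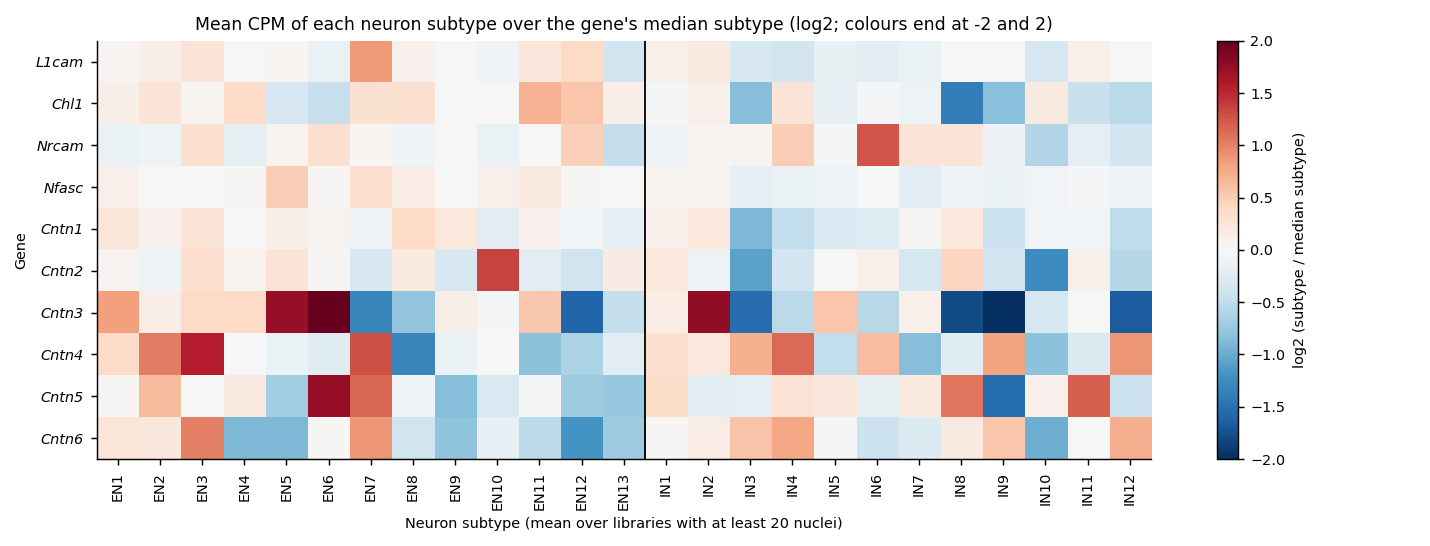
Mean level of each gene (rows) in each of the 25 neuron subtypes (columns, 13 EN then 12 IN) as log2 over the gene's median subtype, with colours ending at -2 and 2. Cntn3 runs from EN6 at the top to IN9 at the bottom, Nrcam stands out in IN6 and Cntn2 in EN10, and the Nfasc row is nearly even.

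Profiles were compared over 68 library-by-subtype sums of at least 50 nuclei, which share libraries and depth, so the correlations of log2 levels are descriptions. Among 9723 genes, the gene most like Cntn4 was Cntn6 and the gene most like Cntn6 was Cntn4 (Pearson r = 0.92), followed for both by Sptbn4, a spectrin (0.84 and 0.88). Over the 56 neuron sums alone they remained each other's nearest gene at r = 0.68. Slc2a3 for Cntn6 (0.88) and Spock2 for Cntn4 (0.84) completed the nearest 3.

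The other members had no member among their nearest 3 genes. Nearest to L1cam over all sums were Pak6, Celf5 and Psd (r = 0.94 each), and nearest to Chl1 were Dclk1 (0.83), Fnbp1l and Nln (0.82 each). For Nrcam they were Ntrk2, Apba2 and Astn1 (0.86 each), and for Nfasc Aatk (0.91), Sema4d (0.90) and Kndc1 (0.87). For Cntn1 they were Elfn2, Lhfpl3 (0.79 each) and Plppr5 (0.78). Cntn2 was nearest to Ppp2r2c (0.85), Shtn1 and Ttll7 (0.82 each), Cntn3 to Cdh7 (0.73), Mtus2 and Hecw2 (0.69 each), and Cntn5 to Cacna1b, Phf24 (0.92 each) and Mmp24 (0.91). Over the neuron sums alone, another gene was nearest to each of these members. It was Dclk1 for L1cam (0.93), Ncam1 for Chl1 (0.85), Dner for Nrcam (0.70) and Sulf1 for Nfasc (0.63). For Cntn1, Cntn2, Cntn3 and Cntn5 it was Vwa5b2 (0.79), Lrrk2 (0.72), Cpeb2 (0.70) and Pcdh7 (0.62). L1cam and Chl1 had r = 0.78 with each other over the neuron sums.

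Astrocytes held more Nrcam than either neuron class and less Cntn2, Cntn3, Cntn4, Cntn5 and Cntn6 in all 4 libraries. From E19 to P21, 4 members were called higher and 3 lower, where 16.9% of all genes tested were higher and 37% lower. Cntn2 did not reach 20 CPM at either stage. Nrcam stood at 675.9, 722.9, 1035.3 and 1400.4 CPM, higher at each later stage (log2 ratio of P21 over E19 1.05, 0.92 to 1.17). From P4 to P21 the Nrcam ratio was 0.95 and that of Cntn1 1.40, called in a step where 14.1% of genes tested were called higher. Cntn1 stood at 125.2, 324.8, 250.0 and 866.6 CPM (2.74, 2.48 to 3.02), and Nfasc at 42.1, 40.6, 53.2 and 163.6 CPM (1.84). Cntn6 was called higher at 22.7 to 35.1 CPM, but its interval crossed 0 (-0.09 to 1.17). Chl1 stood at 674.8, 504.0, 513.6 and 350.6 CPM (-0.94), Cntn5 at 195.4, 271.3, 248.3 and 119.9 CPM (-0.68), and L1cam at 43.2, 39.6, 17.7 and 8.61 CPM (-1.82).

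Myelin markers in astrocytes summed to 27.0, 17.8, 24.2 and 185.7 CPM, so they were high in the same library as Nfasc and Cntn1, and their part in those differences was not tested. Nrcam and Cntn1 were at 25.5 and 457.5 CPM in myelinating oligodendrocytes of the P21 library, and at 411.7 and 1867.2 CPM in committed oligodendrocytes, so that astrocytes (1400.4 and 866.6 CPM) held more Nrcam than both but less Cntn1 than committed nuclei. Nfasc was at 1904.5 CPM in the myelinating nuclei, with 17145.9 CPM of myelin markers, and at 8251.0 CPM in the committed ones. Mean levels in microglia (3 libraries) were above those in astrocytes for Cntn3 (66.9 against 29.0 CPM), Cntn4 (191.4 against 108.3), Cntn5 (298.5 against 208.8) and Cntn6 (67.7 against 35.4). They were also above them for L1cam (30.2 against 27.3 CPM) and Cntn2 (8.98 against 6.24). The astrocyte values of these genes, the calls of L1cam, Cntn5 and Cntn6 included, thus cannot be told from background.

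The astrocyte subtypes divided Nrcam and Cntn1 between them. Nrcam in protoplasmic astrocytes, the grey-matter form, was 743.6, 855.7, 1160.8 and 1537.3 CPM against 414.6, 261.5, 454.0 and 555.7 CPM in fibrous astrocytes, the white-matter form, and the interval of the ratio left out 0 in each library. The log2 ratios of fibrous over protoplasmic were -0.83, -1.69, -1.34 and -1.46. Cntn1 went the other way, with 89.7, 142.8, 132.4 and 806.2 CPM in protoplasmic and 262.4, 957.2, 794.6 and 1239.2 CPM in fibrous astrocytes. Its ratio was 1.498, 2.70, 2.54 and 0.62, smallest at P21. Chl1 was close between the subtypes except at P4, where it was 582.8 CPM in protoplasmic and 230.4 CPM in fibrous astrocytes.

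**Figure D4:**
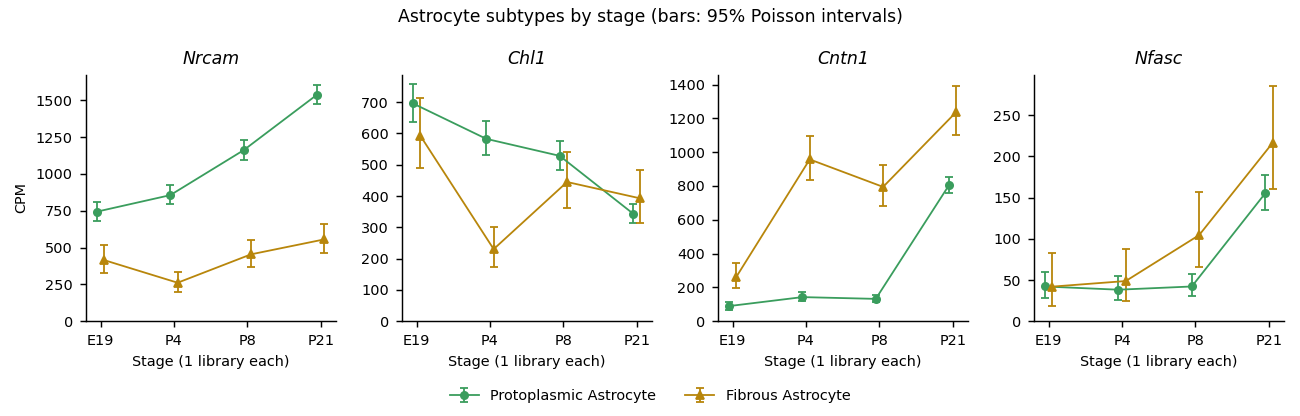
Levels (y axis, CPM from 0) of Nrcam, Chl1, Cntn1 and Nfasc by stage (x axis, 1 library each) in protoplasmic and fibrous astrocytes, with 95% Poisson intervals. Nrcam lies higher in protoplasmic and Cntn1 higher in fibrous astrocytes in all 4 libraries, and Cntn1 in protoplasmic astrocytes stands at 132.4 CPM at P8 and 806.2 CPM at P21.

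The oligodendrocyte lineage had the highest Nfasc and Cntn2 levels of any class at P21. Between P4 and P21, the widest pair of stages with at least 50 nuclei, 3 members were called higher (Nfasc, Cntn2 and Cntn3) and 7 lower, where 22.1% of all genes tested were higher and 43.2% lower. Nfasc stood at 346.1, 1373.4, 1438.8 and 3015.0 CPM from E19 to P21. Cntn2 had 0 UMIs at E19 and P4, 2 at P8 and 497 at P21, which is 211.3 CPM and at least 16.0-fold above the limit of 3 counts at P4. Cntn3 stood at 25.4, 61.6, 42.2 and 332.4 CPM. The makeup of the class differed between these libraries, since myelinating oligodendrocytes numbered 0, 0, 1 and 187.

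Within P21 the subtypes held different members. The glial partner at the paranode, Nfasc, was at 333.9 CPM (271.7 to 406.1) in oligodendrocyte precursors (OPC), 8251.0 CPM in committed oligodendrocytes and 1904.5 CPM in myelinating ones. Committed nuclei at P8 also had much Nfasc, 3735.3 CPM against 242.0 CPM in OPC of that library. Cntn2 was at 23.4, 16.5 and 307.5 CPM in OPC, committed and myelinating nuclei, from 7, 8 and 482 UMIs, and Cntn3 at 70.1, 20.6 and 479.2 CPM. Both were thus highest in the myelinating subtype, and Nfasc in the committed one. OPC at P21 also held 303.9 CPM of myelin markers, against 83.2 CPM at P4, and the part of this in their Cntn2 and Nfasc values was not tested.

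Cntn4, Cntn6 and Nrcam were lowest in the myelinating subtype at P21. Cntn4 was 941.6 CPM in OPC, 129.7 in committed and 79.1 in myelinating nuclei, and Cntn6 was 333.9, 76.2 and 17.2 CPM. Nrcam was alike in OPC and committed nuclei, 447.4 and 411.7 CPM, and 25.5 CPM in myelinating ones. Cntn1 was 1372.4 and 1867.2 CPM in OPC and committed nuclei and 457.5 CPM in myelinating ones, but committed nuclei at P8 had only 447.3 CPM. Chl1 and L1cam were low in all 3, at 14.04 to 33.4 and 3.83 to 33.4 CPM.

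Taken alone, OPC gave another picture of stage than the class. Cntn4 in OPC was 377.7, 552.8, 794.3 and 941.6 CPM and Nrcam 162.6, 273.4, 339.6 and 447.4 CPM, each higher at every later stage. Cntn6 was 68.2, 219.9, 201.0 and 333.9 CPM. In the class as a whole these 3 were lower at P21 than at P4, at log2 ratios of -1.29, -0.69 and -1.47, while in OPC alone the ratios were 0.76, 0.70 and 0.59. L1cam also turned in sign (0.15, from 5 and 10 UMIs). Chl1 was lower in OPC too, at 241.3, 202.1, 91.7 and 33.4 CPM, and Cntn1 was steady at 1353.5, 1533.5, 1305.5 and 1372.4 CPM.

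**Figure D5:**
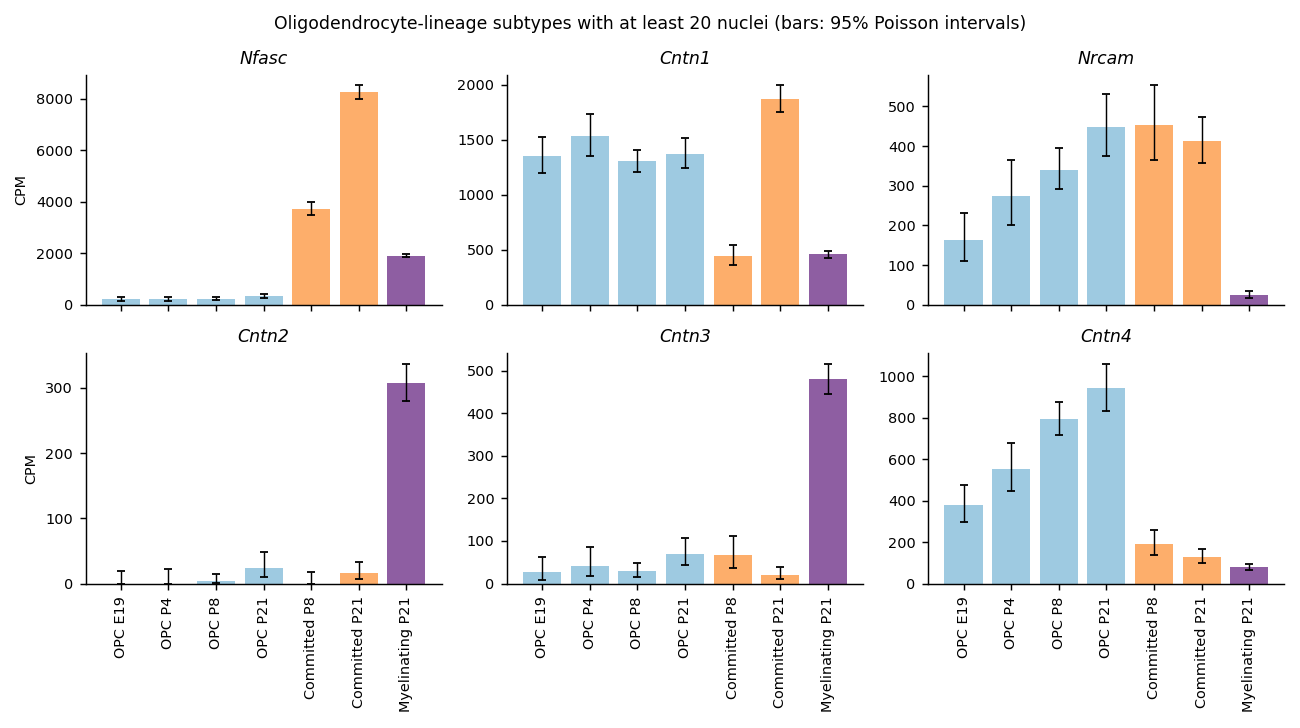
Levels (y axis, CPM from 0) of 6 genes in OPC at the 4 stages, committed oligodendrocytes at P8 and P21 and myelinating oligodendrocytes at P21, with 95% Poisson intervals. Nfasc is highest in committed nuclei, Cntn2 and Cntn3 in myelinating nuclei, and Cntn4 and Nrcam are higher in OPC at each later stage.

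Vascular leptomeningeal cells, the fibroblast-like cells of vessels and meninges, held little of these genes. From P4 to P21, 2 members were called higher and 4 lower, against 12.6% and 30.7% of all genes tested. Chl1 was 121.8 CPM at P4 and 13.1 CPM at P21 (-2.81, -3.52 to -2.08) and Nfasc 16.2 and 41.4 CPM (1.13, 0.22 to 2.05). Neuron markers (Rbfox3, Snap25, Syt1 and Meg3) in this class summed to 3264.5, 2968.7, 3363.7 and 1487.8 CPM from E19 to P21. Astrocyte markers were at 2767.7 CPM at P4, where astrocytes held 1956.8 CPM, and at 1468.2 CPM at P21. Myelin markers were at 18.3 and 163.5 CPM. The part of RNA from other nuclei in these differences was not tested. Dividing cells held Nrcam at 469.4 to 551.6 CPM, Cntn1 at 424.3 to 1298.1 CPM and Cntn2 at 0 to 9.43 CPM over 3 libraries.

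A list of 45 known partners and neighbours of these proteins was read in the same way in neurons. In excitatory neurons 40 passed 20 CPM, of which 9 were called higher and 10 lower from E19 to P21 (median -0.16), beside the 15.8% and 24.5% of all genes given above. In inhibitory neurons 39 passed, with 9 higher and 12 lower (median -0.21), beside 17.7% and 24.6%. The same 3 genes had the highest ratios in both classes. Scn2b, a sodium channel beta subunit, was at 1.57 in excitatory and 1.47 in inhibitory neurons, and Bcan, a matrix proteoglycan, at 1.48 and 1.47. Cntnap1, the axonal partner of Cntn1 at the paranode, was at 1.35 and 1.71. The lowest ratios in excitatory neurons were those of Sema3a (-2.14), a repellent that signals through L1cam-containing receptors, Ncan (-1.74), a matrix ligand of L1cam, and Aplp1 (-1.70). In inhibitory neurons they were those of Tnc (-1.98), Ncan (-1.97) and Aplp1 (-1.74). Ank3, the ankyrin of the initial segment, was at -0.64 and -0.51.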

How the data were processed

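Nuclei of 4 libraries (1 per stage) were analysed. Per the labels, they were captured with 10x Genomics 3′ v3 chemistry and aligned with Cell Ranger 3.0.2 to a pre-mRNA reference built from mm10. The deposited matrix holds UMI counts, not normalised. The deposited percent of mitochondrial UMIs reached 5 and was used only to describe nuclei. No source used here says how nuclei were filtered, doublets treated or classes named. No further filter or doublet caller was applied, and 7 other columns of per-nucleus values were not used. One label abbreviates the embryonic stage differently from the others, and E19 was used.

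Counts were summed per library and class or subtype and scaled to CPM. Ratios had 5 CPM added, which understates differences of low genes. Intervals (95%) were joined from exact Poisson limits and cover counting error only. They were tested on simulated Poisson counts alone, which leave out any uneven spread of UMIs between nuclei. Class ratios needed 50 nuclei at both stages and subtype levels 20. Zero counts were given a limit of 3 counts per library and class. Shares were also taken after thinning to 2000 UMIs, and the profiles compared needed 20 CPM in at least 5 sums. With 1 library per stage no p-value was computed. Python 3.11.15, numpy 2.4.6, scipy 1.17.1 and pandas 2.3.3 were used.

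The members, partner list and markers were chosen with earlier results of these data known. Named were all 10 members, the 3 highest and 3 lowest neuron subtypes of each, the 3 highest and 3 lowest ratios of the partner list in each neuron class, and the 3 genes whose profile over all sums was most like each member. Ank3, the genes nearest over the neuron sums alone and the single subtypes named for a stage ratio fall outside this rule. They were chosen after their values were seen. Genes left out of the marker and partner lists are not reported here.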

Additional observations from a re-analysis of the deposited data

Results flagged for a closer look

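Nrcam and Cntn1 were called in opposite directions in different classes between P4 and P21. For Nrcam the log2 ratio was 0.95 in astrocytes, -0.69 in the oligodendrocyte lineage and -0.60 in vascular leptomeningeal cells. For Cntn1 it was 1.40 in astrocytes, -0.56 in the oligodendrocyte lineage and -0.54 in vascular leptomeningeal cells. The difference between classes was not tested, since each stage had 1 library. The interval of Nrcam in vascular leptomeningeal cells crossed 0 (-1.27 to 0.08), and in OPC alone Nrcam was higher at P21. The interval of Cntn1 in vascular leptomeningeal cells nearly reached 0 (-1.07 to -0.004), from 48 and 60 UMIs. In OPC alone Cntn1 was 1533.5 CPM at P4 and 1372.4 CPM at P21, and myelinating nuclei at P21 held 457.5 CPM.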

How the results depend on the processing

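No paired analysis was possible because each stage had 1 library. The lower L1cam and Chl1 at P21 in both neuron classes and the lower Cntn5 in excitatory neurons held under each alternative run; of 150 neuron calls compared, 9 differed. The count of members higher in excitatory neurons at P21 (1) became 3 with median-of-ratios scaling, 2 without EN7 and 0 with a pseudocount of 20 CPM. Cntn2 there was 0.42 thinned, 0.13 with subtypes weighted alike and 0.44 with the larger pseudocount. Median-of-ratios scaling moved the median of all genes from -0.061 to 0.065 in excitatory and from -0.037 to 0.072 in inhibitory neurons and the share of calls that were higher from 39.2% to 51.0% and from 41.9% to 52.1%. That scaling also left 0 members, in place of 1, higher in inhibitory neurons in all 4 libraries. With subtypes weighted alike, 1 member (Cntn3) was past the fold between the neuron classes in all 4 libraries. With at least 50 nuclei, 5 of 10 lowest subtypes were the ones named. OPC alone (chosen after seeing the data) gave 6 members higher and 2 lower, with L1cam 0.15, Nrcam 0.70, Cntn4 0.76 and Cntn6 0.59 reversed. The share of all genes so called in OPC alone was not taken, so these counts have no background beside them. With nuclei weighted alike, 1 member was higher in vascular leptomeningeal cells. The causes were not tested. Of 250 single-gene values, 177 stayed within the interval of the main value, or within its SD over libraries for subtype levels. A further 69 moved beyond that and 4 reversed in sign. UMIs of both Slc17a6 and Gad1 or Gad2 were in 1673 of 7552 neurons (22.2%).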
